A study of Arabidopsis thaliana with 23 samples.

Results

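Transcripts of whole Arabidopsis seedlings treated for 3 h with the auxin antagonist PEO-IAA were compared with those of seedlings treated with IAA (indole-3-acetic acid), the plant's chief auxin. The comparison holds 6 of the 23 arrays of the series, chosen by their titles: 3 arrays of seedlings given 10 µM PEO-IAA without added IAA, and 3 arrays of seedlings given 1 µM IAA. Both groups were Col-0 seedlings, kept for 6 or 7 days on agar and then for 1 day in liquid medium under shaking, and each array carried biotin-labelled total RNA of 1 sample. Of the other 17 arrays, 3 with both compounds at the same doses and 3 of mock-treated seedlings show where the levels lay with both treatments and with neither, and 3 more arrays were of seedlings given 30 µM kynurenine, a compound that inhibits the auxin synthesis enzyme TAA1. The remaining arrays, numbered as replicates 4 and 5, were of mock-treated seedlings and of seedlings given 100 nM IAA, 10 µM of the inhibitor PPBo, or PPBo with 1 µM IAA. They enter the fit and its estimate of the spread. By its title, the series looked for auxin-responsive genes with the help of auxin inhibitors.

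IAA binds the receptors TIR1 and AFB together with Aux/IAA repressor proteins, which are then degraded, so that auxin response factors can switch on their target genes. Early targets include Aux/IAA genes themselves, GH3 genes, whose enzymes join IAA to amino acids, and LBD genes that act at the start of lateral roots. PEO-IAA is a derivative of IAA that occupies the auxin pocket of these receptors without letting the repressors bind. A direct comparison of both treatments covers the span between an added auxin and a blocked receptor, and the values of mock arrays are given beside it. The doses of both compounds differed, so the values compare these treatments and not the compounds at a matched dose.

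Values are MAS5 signals, a linear brightness per probe set, which is a set of short probes for 1 transcript. Differences are PEO-IAA minus IAA on a log2 scale after adding a pseudocount of 7.56, so that negative values mean lower with PEO-IAA, and each is given with its standard error. All adjusted p-values come from limma with Benjamini-Hochberg adjustment over 15922 tested probe sets, with 0.05 as the threshold for a call. The labels do not say whether the 3 samples of a group were separate cultures. In the fit with all arrays, the spread behind the p-values came from the variation within groups over all 23 arrays, other treatments included. Part or all of this variation may be technical.

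The third IAA array stood apart from the other 22 arrays of the series. Its median correlation with the other arrays was 0.879, against 0.949 to 0.969 for the others. Control probe sets for GAPDH, which read the 3' and the 5' end of 1 transcript and differ more where RNA is shortened, gave a 3' to 5' ratio of 24.4 on it and of 1.19 to 2.05 on the others. For actin that ratio was 39.8, against 7.77 to 28.2. Its limma quality weight, lower for noisier arrays, was 0.0608, against 0.409 to 2.86. The counts over all probe sets and many single-gene values are therefore given with all arrays and without the third IAA array. A value given without naming the arrays comes from all arrays. The part of RNA quality in any result was not tested.

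With all arrays, 663 of the 15922 tested probe sets were called, which is 4.16%. Of these, 381 (2.39%) were higher and 282 (1.77%) lower with PEO-IAA than with IAA. Without the third IAA array 628 (3.94%) were called, 352 (2.21%) higher and 276 (1.73%) lower. In both fits 495 (3.11%) were called, 279 (1.75%) higher and 216 (1.36%) lower, and 215 of them named 1 gene. In 489 of the 495 the 3 PEO-IAA arrays and the 3 IAA arrays did not overlap, which held for 16.3% of all tested probe sets (8.35% above, 7.93% below). The differences were large in part of these probe sets: 39 were higher and 48 lower by at least 2 on the log2 scale. Other single arrays moved the count more than the third IAA array did. Leaving out IAA replicate 1 gave 1118 calls and leaving out PEO-IAA replicate 1 gave 408, and 338 of the 495 were called whichever of the 6 arrays was left out. With the spread taken from the 6 arrays alone 152 (0.955%) were called, 151 of them among the 495, and from the 5 arrays without the third IAA array 392 (2.46%).

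The genes furthest below their IAA level in PEO-IAA seedlings included well-known early auxin targets. All 7 tested members of a list of 14 early auxin-induced genes were lower with PEO-IAA, with and without the third IAA array, against 1.45% and 1.37% of all 8629 tested genes. Their median difference was -3.82 with all arrays and -4.12 without the third IAA array, beside medians of 0.0010 and -0.0077 over all tested probe sets. The list was assembled with earlier results of these arrays known, so its count is a description. In whole seedlings a lower signal can mean less RNA per cell or fewer cells that make it, which cannot be told apart here.

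GH3.3 (AT2G23170), a GH3 enzyme that conjugates IAA, gave signals of 34.5, 59.5 and 100.3 in PEO-IAA seedlings, against 12714, 15254 and 13866 in IAA seedlings. The groups lay far apart, and the mean signal was 215 times as high with IAA. The difference of -7.69 ± 0.42 (adjusted p = 1.66e-09) was the most negative of the genes chosen by the naming rule, and it was -7.70 ± 0.48 without the third IAA array. Arrays with both compounds (10350, 10679 and 12902) lay close to the IAA arrays, while mock arrays (194, 313 and 443) lay between both groups and closer to PEO-IAA. GH3.5 (AT4G27260, WES1 in the gene table), which also conjugates IAA, gave 127, 113 and 203 with PEO-IAA, against 2944, 3192 and 1665 with IAA. The third IAA array was the lowest of its group but well above every PEO-IAA array, and the difference was -4.06 ± 0.27 (adjusted p = 1.92e-08), or -4.35 ± 0.27 without it. GH3.1 (AT2G14960), of the same family, gave 22.5, 3.84 and 3.49 with PEO-IAA and 291, 238 and 137 with IAA. Its difference was -3.82 ± 0.40 (adjusted p = 4.97e-06), or -4.12 without the third IAA array. The PEO-IAA signals of GH3.1 and of LBD29 were among the dimmest used here, and the sizes of such differences depend on the pseudocount. With a pseudocount of 60.4, the 30th percentile of all values, GH3.1, the median gene of the list, was at -1.98, and with 0.95, the 1st percentile, at -4.75, and it was called with both.

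LBD29 (AT3G58190) and LBD16 (AT2G42430) are LOB-domain transcription factors that auxin response factors switch on when lateral roots are founded. LBD29 gave signals of 3.02, 23.4 and 3.74 with PEO-IAA, against 836, 849 and 472 with IAA, a difference of -5.50 ± 0.46 (adjusted p = 3.19e-07), or -5.78 ± 0.51 without the third IAA array. With the pseudocounts of 60.4 and 0.95 it was at -3.44 and -6.50. LBD16 gave 83.1, 29.4 and 31.6 with PEO-IAA, against 225, 236 and 196 with IAA. It differed by -2.15 ± 0.34 (adjusted p = 0.000422), by -2.23 without the third IAA array, and by -1.40 with the larger pseudocount. In both genes every PEO-IAA array lay below every IAA array, as in 7.93% of all tested probe sets, and the naming rule required this of LBD29. Both calls held whichever array was left out, though the naming rule required the LBD29 call to hold without the third IAA array. LBD29 and LBD16 are the 2 tested members of the LBD family. Both were called lower with and without the third IAA array, against 1.45% and 1.37% of all tested genes. Both also belong to the early auxin-induced list above, so this count repeats part of that one.

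HAT2 (AT5G47370), an auxin-induced homeodomain-leucine zipper factor, gave signals of 142, 196 and 169 with PEO-IAA, against 1228, 1502 and 1476 with IAA. Both groups were tight, and the difference of -3.00 ± 0.18 (adjusted p = 5.00e-09) was -2.96 ± 0.20 without the third IAA array. It was the one tested gene of its family list.

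Of 3 tested Aux/IAA genes 2 were called lower with all arrays and 3 without the third IAA array, against 1.45% and 1.37% of all tested genes. IAA29 (AT4G32280) gave signals of 22.9, 26.5 and 47.4 with PEO-IAA, against 476, 519 and 586 with IAA, a difference of -3.79 ± 0.25 (adjusted p = 1.30e-08). Here the third IAA array was the highest of its group, and without it the difference was -3.71 ± 0.28. IAA30 (AT3G62100), whose protein lacks the degron of most Aux/IAA repressors, gave 36.4, 45.3 and 39.6 with PEO-IAA, against 189, 167 and 123 with IAA, a difference of -1.79 ± 0.21 (adjusted p = 2.24e-05), or -1.12 with the pseudocount of 60.4. IAA18 (AT1G51950) depended on the third IAA array. Its signals were 514, 540.2 and 535 with PEO-IAA, against 751, 792 and 371 with IAA, so the groups overlapped through that one array. The difference was -0.19 ± 0.19 (adjusted p = 0.599) with it and -0.54 ± 0.11 (adjusted p = 0.00724) without it.

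**Figure D1:**
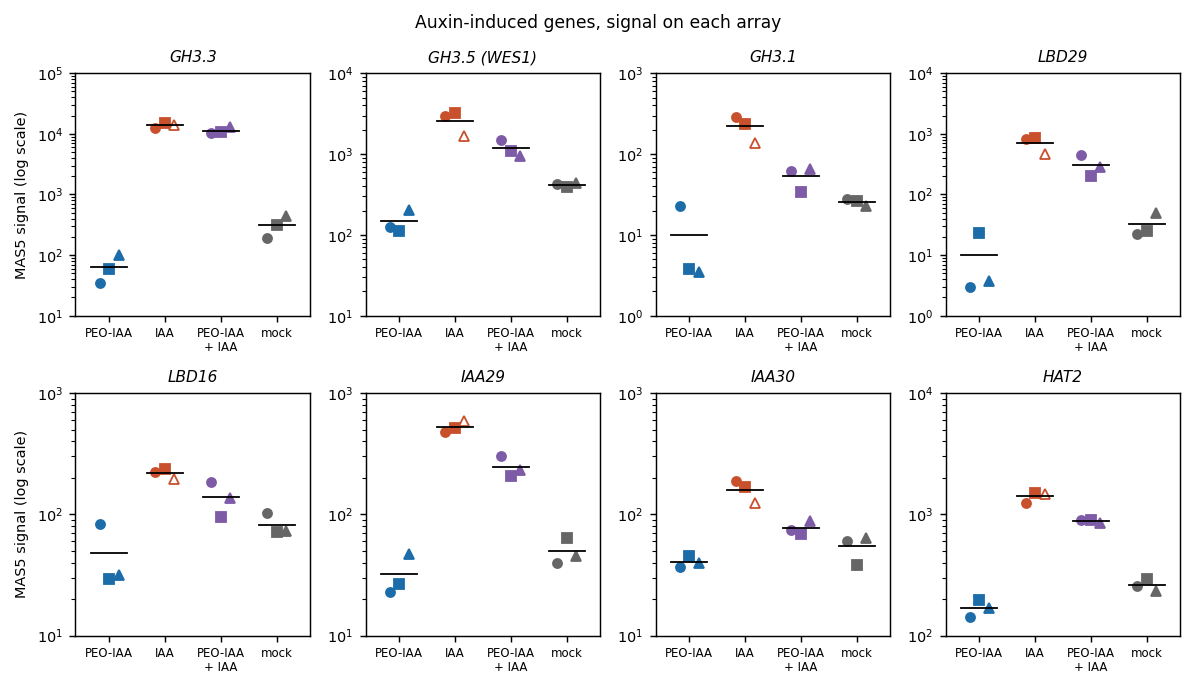
MAS5 signal (log scale, 1 panel per gene) of 8 auxin-induced genes on each PEO-IAA, IAA, PEO-IAA plus IAA and mock array; circles, squares and triangles mark replicates 1, 2 and 3, the open triangle is the third IAA array, and bars are group means. In each panel all PEO-IAA arrays lie below all IAA arrays, as for GH3.3 with 34.5 to 100.3 against 12714 to 15254. This held for 7.93% of all tested probe sets, and the naming rule required it of GH3.3, GH3.5, LBD29, IAA29 and HAT2.

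Genes of auxin removal, synthesis and transport were tested beside the core. Of 7 tested genes of auxin conjugation and oxidation 3 were lower, the GH3 genes above, 1 was higher and 3 were not called; without the third IAA array 4 were lower and 1 higher. Of all tested genes 1.92% were called higher and 1.45% lower with all arrays, and 1.87% and 1.37% without that array. The higher one was AT1G14120, listed from general knowledge as the auxin oxidase DAO2, with signals of 1266, 452 and 611 with PEO-IAA, against 188, 155 and 445 with IAA. The difference was 1.55 ± 0.41 (adjusted p = 0.0324) and 2.00 ± 0.40 (adjusted p = 0.00464) without the third IAA array, and the call was lost in 4 of the 6 fits that left out 1 array (adjusted p up to 0.225). Its neighbour AT1G14130 (DAO1 from general knowledge) was at 0.40 ± 0.19 (adjusted p = 0.266). GH3.17 (AT1G28130), which conjugates IAA to glutamate, gave 255, 424 and 374 with PEO-IAA, against 663, 755 and 321 with IAA. It was called only without the third IAA array, at -1.03 ± 0.26 (adjusted p = 0.0327), against -0.65 ± 0.29 (adjusted p = 0.239) with it. GH3.9 was at -0.10 ± 0.22 (adjusted p = 0.827).

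Neither of the 2 tested genes of auxin synthesis was called by limma, nor did either reach an unadjusted p below 0.05. With all arrays 3022 of all 15922 tested probe sets reached that threshold. YUC2 (AT4G13260), which makes IAA from indole-3-pyruvate, gave 153, 186 and 161 with PEO-IAA, against 131, 165 and 216 with IAA, a difference of -0.01 ± 0.17 with a sign that turned to 0.17 ± 0.17 without the third IAA array. The tryptophan pathway gene AT2G04400, listed from general knowledge as indole-3-glycerol phosphate synthase, was at 0.60 ± 0.29 (adjusted p = 0.273). WAG2 (AT3G14370), a kinase that acts on PIN auxin exporters and the one tested transport gene, gave 55.3, 158 and 146 with PEO-IAA, against 324, 227 and 229 with IAA. It was lower, at -1.18 ± 0.29 (adjusted p = 0.0217), and the call was lost without the first IAA or the first PEO-IAA array (adjusted p up to 0.136), with the 6 arrays alone (adjusted p = 0.382) and with the 15 arrays of replicates 1 to 3 (adjusted p = 0.0791).

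Several genes known here by a locus code alone were also strongly lower with PEO-IAA. AT1G64405 gave 70.3, 18.2 and 49.7 with PEO-IAA, against 542, 573 and 539 with IAA, a difference of -3.52 ± 0.30 (adjusted p = 3.78e-07). AT5G62280 gave 98.2, 158 and 192 with PEO-IAA, against 1385, 1735 and 751 with IAA, a difference of -3.01 ± 0.28 (adjusted p = 1.08e-06), and AT4G37295 differed by -2.38 ± 0.27 (adjusted p = 1.37e-05). The naming rule required that the groups of these 3 genes did not overlap. It also required a call with and without the third IAA array. Each call also held when any other PEO-IAA or IAA array was left out.

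AT2G19970 and PR-1-LIKE (AT2G19990), named in the gene table as like pathogenesis-related protein 1, stand close together in the genome, with 1 gene between them. AT2G19970 gave 124, 161 and 207 with PEO-IAA, against 1926, 2722 and 827 with IAA, a difference of -3.28 ± 0.44 (adjusted p = 7.78e-05). PR-1-LIKE gave 52.8, 44.1 and 62.5 with PEO-IAA, against 357, 772 and 161 with IAA, a difference of -2.59 ± 0.42 (adjusted p = 0.000596). In both the third IAA array was the lowest IAA array, and without it the differences were -3.77 ± 0.42 for AT2G19970 and -3.15 ± 0.38 for PR-1-LIKE. With the spread of the 6 arrays alone PR-1-LIKE was not called (adjusted p = 0.0702).

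Genes of wall loosening were lower in part. Expansins and xyloglucan endotransglucosylase/hydrolases (XTH) let growing walls yield, and of 20 tested members 6 were lower, 1 was higher and 13 were not called, with the same counts without the third IAA array. Of all tested genes 1.45% were lower and 1.92% higher. The fit of the 6 arrays alone left 1 member lower and 0 higher, with 0.955% of all tested probe sets called in either direction. The median difference of the 20 members with all arrays was -0.35. EXPA4 (AT2G39700) gave 1047, 880.4 and 883 with PEO-IAA, against 2534, 2845 and 1405 with IAA, and was lower, at -1.21 ± 0.21 (adjusted p = 0.0016). EXPA8 (AT2G40610) gave 199, 201 and 147 with PEO-IAA, against 366, 486 and 447 with IAA, a difference of -1.22 ± 0.23 (adjusted p = 0.00227). XTH19 (AT4G30290) was lower, at -1.01 ± 0.16 (adjusted p = 0.000448), with 296, 251 and 288 with PEO-IAA, against 713, 561 and 458 with IAA. In these 3 genes the groups did not overlap, as in 16.3% of all tested probe sets and in 489 of the 495 called in both fits. Without the third IAA array EXPA4, EXPA8 and XTH19 were at -1.52, -1.19 and -1.165.

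The beta-expansin EXPB1 (AT2G20750) was the one member that was higher with PEO-IAA, with 162, 173 and 109.8, against 59.2, 57.2 and 54.6 with IAA, a difference of 1.25 ± 0.20 (adjusted p = 0.000537), or 0.82 with the pseudocount of 60.4. EXPA20 (AT4G38210), named after its values were seen, was lower, at -0.99 ± 0.21 (adjusted p = 0.00625). With the spread of the 6 arrays alone EXPA8 stayed called (adjusted p = 0.0376), and XTH19, EXPB1, EXPA4 and EXPA20 did not (adjusted p = 0.0723, 0.0723, 0.127 and 0.17). Members that were not called ranged from EXPB2 at -0.70 ± 0.40 to XTH32 at 0.39 ± 0.12.

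The remaining 2 lower expansins, EXPA7 (AT1G12560) and EXPA18 (AT1G62980), act in root hairs, the outgrowths of single epidermal cells. EXPA7 gave 47.0, 30.6 and 5.89 with PEO-IAA, against 94.2, 86.5 and 107 with IAA, a difference of -1.76 ± 0.39 (adjusted p = 0.0103), lost without the third PEO-IAA array (adjusted p = 0.0528). With the pseudocounts of 60.4 and 0.95 it was at -0.85 and -2.15, and called with both. EXPA18 gave 93.5, 85.9 and 56.3 with PEO-IAA, against 182, 171 and 169 with IAA, a difference of -1.10 ± 0.23 (adjusted p = 0.00523). In both, mock arrays were higher than IAA arrays on average, with 138, 145 and 94.8 for EXPA7 and 297, 292 and 224 for EXPA18, so the IAA group was not the high end for these genes. The remaining tested root hair gene, AT4G26010, a peroxidase, was at -0.19 ± 0.41 (adjusted p = 0.818). With the 6 arrays alone neither EXPA7 nor EXPA18 was called (adjusted p = 0.304 and 0.103).

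Genes for enzymes that modify small foreign or reactive molecules had some of the largest positive differences. Glutathione transferases of the tau class join glutathione to such molecules, and UDP-glycosyltransferases (UGT) join sugars to them as well as to hormones and flavonoids. Of 11 tested glutathione transferases 3 were higher and 0 lower in limma, with the same count without the third IAA array, against 1.92% and 1.87% of all tested genes called higher. At an unadjusted p below 0.05 the counts with all arrays were 4 higher, with GSTU20 at 0.35 ± 0.15, and 1 lower, GSTU16 at -0.41 ± 0.17. In either direction 3022 of all 15922 tested probe sets reached that threshold. GSTU25 (AT1G17180) gave 1338, 1609 and 3571 with PEO-IAA, against 183, 205 and 249.7 with IAA. The mean signal was 10.2 times as high with PEO-IAA, and the difference was 3.18 ± 0.49 (adjusted p = 0.000405), with an adjusted p of 0.00117 without the third IAA array. GSTU22 (AT1G78340) gave 1062, 1853 and 1810.5 with PEO-IAA, against 289, 387 and 349 with IAA, a difference of 2.15 ± 0.23 (adjusted p = 5.12e-06).

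GSTU26 (AT1G17190), the third called member, gave 361, 326 and 267 with PEO-IAA, against 133, 136 and 149.7 with IAA, a difference of 1.14 ± 0.21 (adjusted p = 0.00194). The 3 genes differed in where the other treatments lay. In GSTU25 and GSTU22 the arrays with both compounds (1072, 1061 and 3272 for GSTU25, 887, 1354 and 1595 for GSTU22) were high like those with PEO-IAA alone. In GSTU26 they were low (104, 180.2 and 166) like those with IAA alone, and mock arrays (269, 411 and 243) were high. The 8 members not called ranged from GSTU16 at -0.41 ± 0.17 to GSTU28 at 0.43 ± 0.32.

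Of 34 tested UGT genes 6 were higher and 1 lower with all arrays, and 5 higher and 0 lower in limma without the third IAA array (12 and 2 at an unadjusted p below 0.05). Without that array 2091 of all 15922 tested probe sets had an unadjusted p below 0.05, in either direction. Of all tested genes 1.92% were higher and 1.45% lower with all arrays, and 1.87% and 1.37% without that array. The counts were 2 higher and 0 lower with the 6 arrays alone, and 4 higher and 0 lower with the 5 arrays without the third IAA array. In those fits 0.955% and 2.46% of all tested probe sets were called in either direction. UGT73B4 (AT2G15490) gave 771, 653 and 1009 with PEO-IAA, against 85.7, 162 and 187 with IAA, a difference of 2.47 ± 0.31 (adjusted p = 3.52e-05). UGT73B5 (AT2G15480), its close relative, gave 326, 328 and 458 with PEO-IAA, against 132, 169 and 129.6 with IAA, a difference of 1.32 ± 0.21 (adjusted p = 0.000596). Without the third IAA array UGT73B4 was at 2.68 and UGT73B5 at 1.25. In both, arrays with both compounds (781, 687 and 1174 for UGT73B4, 301, 289.8 and 430.0 for UGT73B5) were at the PEO-IAA level.

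UGT71C1 (AT2G29750) gave 333, 344 and 231 with PEO-IAA, against 116, 91.9 and 11.9 with IAA. The third IAA array, which was very low, widened its difference to 2.30 ± 0.43 (adjusted p = 0.00249), and without that array it was 1.46 ± 0.21 (adjusted p = 0.000281). UGT71C3 (AT1G07260) was higher by 0.87 ± 0.14 (adjusted p = 0.000744), and UGT73D1 (AT3G53150), named after its values were seen, by 1.17 ± 0.26 (adjusted p = 0.0113). With the 6 arrays alone UGT73B4 and UGT73B5 stayed called (adjusted p = 0.0131 and 0.0321), and UGT71C1, UGT71C3 and UGT73D1 did not (adjusted p = 0.264, 0.142 and 0.107).

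Calls of 2 further UGT genes were lost without the third IAA array. UGT74F1 (AT2G43840), a salicylic acid glucosyltransferase, gave 92.1, 98.2 and 79.9 with PEO-IAA, against 64.3, 46.9 and 15.5 with IAA, and was at 1.12 ± 0.29 (adjusted p = 0.0293) with that array and 0.64 ± 0.20 (adjusted p = 0.0894) without it. UGT76C1 (AT5G05870), a cytokinin glucosyltransferase, was at -0.67 ± 0.17 (adjusted p = 0.0229) with it and -0.57 ± 0.17 (adjusted p = 0.0894) without it. As the one lower UGT gene it was also lost without the first or the second PEO-IAA array, with the 6 arrays alone, with the 15 arrays of replicates 1 to 3 and with array quality weights. UGT74D1 (AT2G31750), which can glycosylate auxin, was not called at 0.63 ± 0.18 (adjusted p = 0.056). All 3 were named as family members whose values were known.

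AT2G32020, known here by its locus code, had the next largest positive difference among genes chosen by the naming rule, after the peroxidase AT3G01190. It gave 274, 729.7 and 627 with PEO-IAA, against 58.6, 40.1 and 44.3 with IAA. The difference was 3.22 ± 0.37 (adjusted p = 1.44e-05), or 3.18 without the third IAA array. Mock arrays (55.1, 39.4 and 58.9) were as low as the IAA arrays, and arrays with both compounds (138, 249.8 and 502) spread widely above them.

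**Figure D2:**
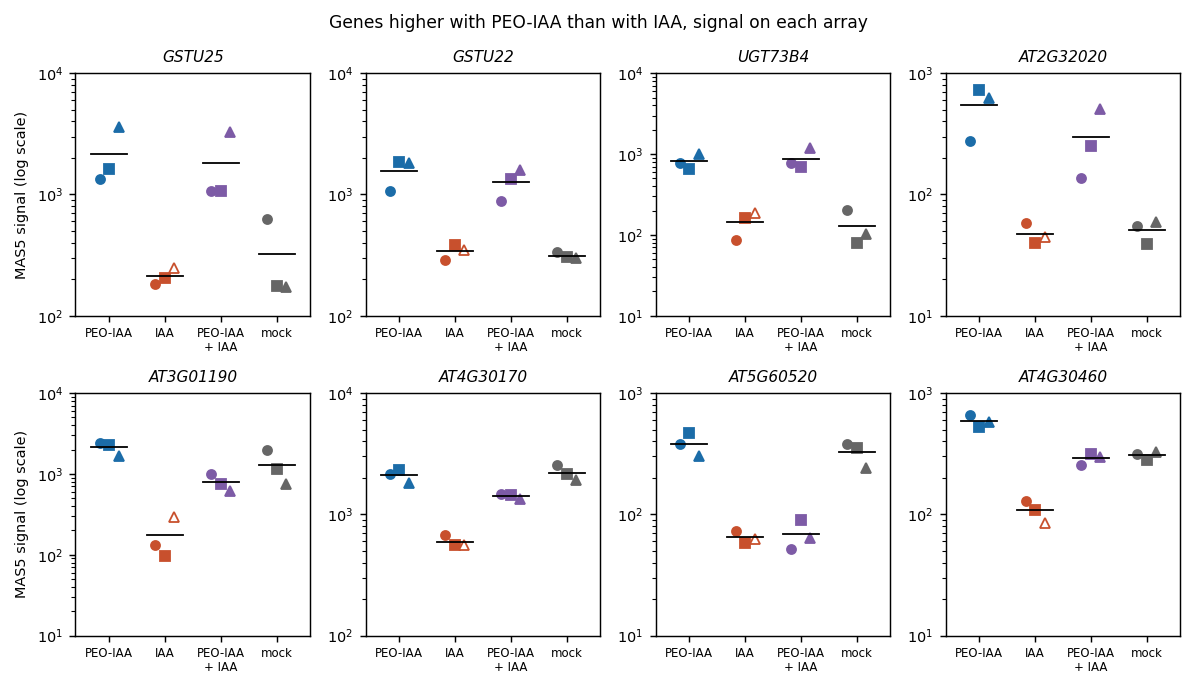
MAS5 signal (log scale, 1 panel per gene) of 8 genes that were higher with PEO-IAA, on each PEO-IAA, IAA, PEO-IAA plus IAA and mock array; circles, squares and triangles mark replicates 1, 2 and 3, the open triangle is the third IAA array, and bars are group means. In the panel of GSTU22 the arrays with both compounds (887 to 1595) are near those with PEO-IAA (1062 to 1853), while for AT5G60520 they (52.2 to 89.3) are near those with IAA (58.1 to 72.4).

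Class III peroxidases, secreted enzymes that can stiffen or loosen walls, were called in both directions. Of 38 tested members of a list compiled from general knowledge 9 were higher and 5 lower with all arrays, and 6 higher and 3 lower without the third IAA array, against 1.92% and 1.45% of all tested genes with all arrays, and 1.87% and 1.37% without that array. In the fit of the 6 arrays alone 3 were higher and 1 lower, and in that of the 5 arrays without the third IAA array 5 and 2. Those 2 fits called 0.955% and 2.46% of all tested probe sets in either direction. In the main fits, all 9 called without the third IAA array were among the 14 called with all arrays. Of all tested genes 1.44% were called higher and 1.04% lower in both of these fits. The median difference over the list was 0.19, or 0.14 without that array. AT3G01190 had the largest positive difference of all genes chosen by the rule, with 2419, 2289.7 and 1652 with PEO-IAA, against 131, 97.3 and 296 with IAA, 3.68 ± 0.34 on the log2 scale (adjusted p = 8.26e-07). The third IAA array was the highest of its group, and without it the difference was 4.12 ± 0.30. AT4G30170 gave 2148, 2309 and 1818 with PEO-IAA, against 671, 555 and 554 with IAA, a difference of 1.80 ± 0.13 (adjusted p = 4.29e-08). Both groups of AT4G30170 were narrow and far apart, and its difference was 1.76 without the third IAA array.

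AT4G11290 was higher by 1.39 ± 0.15 (adjusted p = 9.11e-06), with 1099, 1067 and 1016, against 446, 358 and 401 with IAA. AT3G21770 was higher by 0.85 ± 0.15 (adjusted p = 0.00122), and with the 6 arrays alone it was not called (adjusted p = 0.165). The other 2 that were higher in both fits, named after their values were seen, were AT4G33420 at 0.83 ± 0.17 (adjusted p = 0.00679) and AT1G49570 at 1.15 ± 0.31 (adjusted p = 0.0381). The call of AT1G49570 was lost in 5 of the 6 fits that left out 1 array.

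The 3 peroxidases lower in both fits were also named after their values were seen. AT3G49960 gave 3.29, 11.3 and 1.64 with PEO-IAA, against 141, 91.5 and 56.3 with IAA, a difference of -2.99 ± 0.61 (adjusted p = 0.00558). AT1G30870 gave 174, 78.8 and 58.0 with PEO-IAA, against 352, 309 and 202 with IAA, a difference of -1.51 ± 0.31 (adjusted p = 0.00558). In both, mock arrays (210.0, 255 and 136 for AT3G49960, 635, 505 and 319 for AT1G30870) were above the IAA arrays on average, as in the root hair expansins. AT5G14130 was lower, at -0.99 ± 0.20 (adjusted p = 0.00494), with mock arrays (95.9, 80.2 and 80.4) below the PEO-IAA arrays (132, 143 and 169.7). The 5 peroxidases called only with the third IAA array, of which the rule names AT2G39040 alone, were AT5G17820, AT5G06730 and AT2G39040, which were higher, and AT5G64100 and AT2G22420, which were lower, with differences without it of 0.96 ± 0.31, 0.75 ± 0.23, 1.12 ± 0.40, -0.80 ± 0.23 and -0.54 ± 0.20.

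The remaining genes with the largest positive differences carry only a locus code here. AT5G60520 gave 379, 465 and 301 with PEO-IAA, against 72.4, 58.1 and 63.0 with IAA, a difference of 2.42 ± 0.21 (adjusted p = 3.73e-07). The neighbouring genes AT4G30460 and AT4G30450 were both higher. AT4G30460 gave 655, 524 and 581 with PEO-IAA, against 129.7, 109 and 85.4 with IAA, a difference of 2.37 ± 0.15 (adjusted p = 8.53e-09). AT4G30450 gave 1387, 1338 and 1188 with PEO-IAA, against 271, 295 and 367 with IAA, a difference of 2.05 ± 0.16 (adjusted p = 1.08e-07). The naming rule required that the groups of these 3 genes did not overlap. Without the third IAA array AT5G60520, AT4G30460 and AT4G30450 were at 2.405, 2.22 and 2.17.

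AT4G11190 was higher by 1.92 ± 0.39 (adjusted p = 0.00556) with 1332, 835 and 681, against 259.9, 140.4 and 354 with IAA, and was not called with the 6 arrays alone (adjusted p = 0.0697). AT3G45680 gave 559, 357 and 443 with PEO-IAA, against 85.5, 138 and 135 with IAA, a difference of 1.86 ± 0.24 (adjusted p = 4.57e-05). The rule took the 10 highest and 10 lowest genes from those called with and without the third IAA array. All 20 were also called when any other of the 6 arrays was left out. With the 6 arrays alone 18 were called, the exceptions being PR-1-LIKE and AT4G11190.

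Some families gave no call. None of 13 tested cytochrome P450 genes, 5 WRKY factors and 3 reference genes was called with limma, with medians of -0.05, -0.10 and -0.03. Of all tested genes 1.92% were called higher and 1.45% lower, so lists this small would hold few or no calls at that share. At an unadjusted p below 0.05 there were 2 higher P450 genes (CYP71B37 at 0.55 ± 0.19 and CYP71B35 at 0.50 ± 0.23) and 1 lower (CYP78A9 at -0.68 ± 0.26), 1 higher WRKY factor (WRKY6 at 0.58 ± 0.22) and 0 reference genes. Of all 15922 tested probe sets 3022 reached that threshold in either direction, so these counts do not set the families apart. The cytokinin response regulator RR16 was at 0.23 ± 0.21 (adjusted p = 0.557). Genes of the light-harvesting protein LHCB4, markers of green shoot tissue, gave bright signals, LHCB4.1 12060, 10230 and 11488 with PEO-IAA, against 10441, 11411 and 15388 with IAA, and its difference of -0.12 ± 0.14 was not called (adjusted p = 0.631). LHCB4.2 was at 0.10 ± 0.12 and LHCB4.3 at 0.12 ± 0.28, neither called. Of the auxin receptors and response factors, the SAUR genes, the other root markers, and the lists for oxophytodienoate reductases, ethylene synthesis, ERF, MYB and heat shock proteins no member was tested under a name here, so these families were not analysed.

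**Figure D3:**
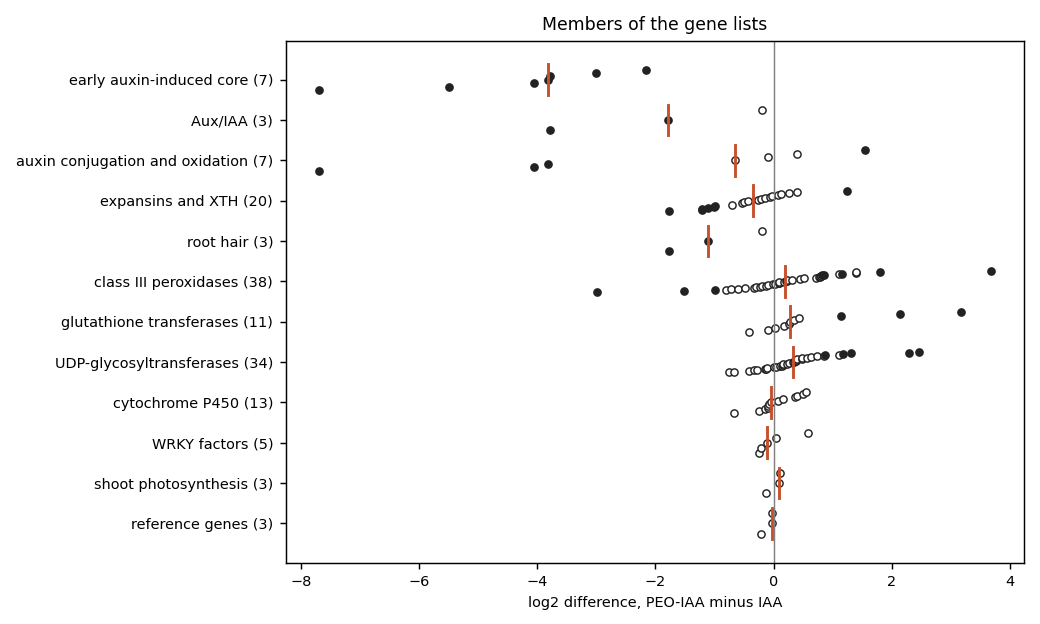
Log2 difference, PEO-IAA minus IAA with all arrays, of each tested member of 12 gene lists (number tested in brackets). Filled points were called both with and without the third IAA array. All other points are open, also those called with all arrays but not without the third IAA array. The red bar is the list's median. The early auxin-induced core lies between -7.69 and -2.15, while peroxidases, glutathione transferases and UGT genes have most members near 0 and a few far from it.

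Arrays that did not enter the comparison show on which side of it a gene's level without treatment lay. Each mean was placed on a scale on which the IAA mean is 0 and the PEO-IAA mean is 1, for the 495 probe sets called in both fits. Since the ends of this scale come from the arrays that chose these probe sets, positions are descriptions with no test. For the 279 higher probe sets the mock mean lay at a median position of 0.68 and the mean with both compounds at 0.46. For the 216 lower ones these were 0.67 and 0.35, so in the median probe set mock lay nearer to PEO-IAA and the combination nearer to IAA. Without the third IAA array in the IAA mean the medians were 0.64 and 0.42 for the higher and 0.68 and 0.33 for the lower ones.

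Among the 216 lower probe sets, mock lay nearer to PEO-IAA and the combination nearer to IAA in 112. GH3.3, HAT2, IAA29 and EXPA8 were of this kind. GH3.3 differed from mock by -2.19 ± 0.42 with PEO-IAA and by 5.50 ± 0.42 with IAA, 2 values that share the mock arrays. HAT2 was at -0.60 ± 0.18 with PEO-IAA (adjusted p = 0.242) and 2.40 ± 0.18 with IAA (adjusted p = 1.85e-07) against mock. In 54 both mock and the combination lay nearer to PEO-IAA. AT1G30760, named after its values were seen, was one of these, with 112, 83.5 and 89.3 with PEO-IAA, against 499, 636 and 387 with IAA. Its signals with both compounds (175, 124 and 44.2) and in mock (147, 81.3 and 94.5) were as low as with PEO-IAA alone.

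In 45 of the 216 both mock and the combination lay nearer to IAA, as in EXPA7, EXPA18 and the endoglucanase gene GH9C1. EXPA18 was at -1.71 ± 0.23 against mock with PEO-IAA (adjusted p = 0.000283) and at -0.61 ± 0.23 with IAA (adjusted p = 0.185). In 5 mock lay nearer to IAA and the combination nearer to PEO-IAA, and GH9C2 (AT1G64390), an endoglucanase gene and the one of these with a single gene name, gave 951, 869.7 and 824 with PEO-IAA, against 1504, 1464 and 1163 with IAA.

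Among the 279 higher probe sets 116 had mock nearer to PEO-IAA and the combination nearer to IAA, such as AT5G60520, AT4G11190 and GSTU26. AT5G60520 was at 0.23 ± 0.21 with PEO-IAA (adjusted p = 1) and -2.19 ± 0.21 with IAA (adjusted p = 3.98e-06) against mock. In 66 both lay nearer to PEO-IAA, such as AT3G01190, AT4G30170 and AT4G11290, and in 34 both lay nearer to IAA. In 63 mock lay nearer to IAA and the combination nearer to PEO-IAA. These held GSTU25, GSTU22, UGT73B4, UGT73B5 and AT2G32020. GSTU22 was at 2.26 ± 0.23 with PEO-IAA (adjusted p = 2.96e-05) and 0.12 ± 0.23 with IAA (adjusted p = 0.794) against mock, and UGT73B4 at 2.68 ± 0.31 (adjusted p = 9.11e-05) and 0.21 ± 0.31 (adjusted p = 0.72).

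**Figure D4:**
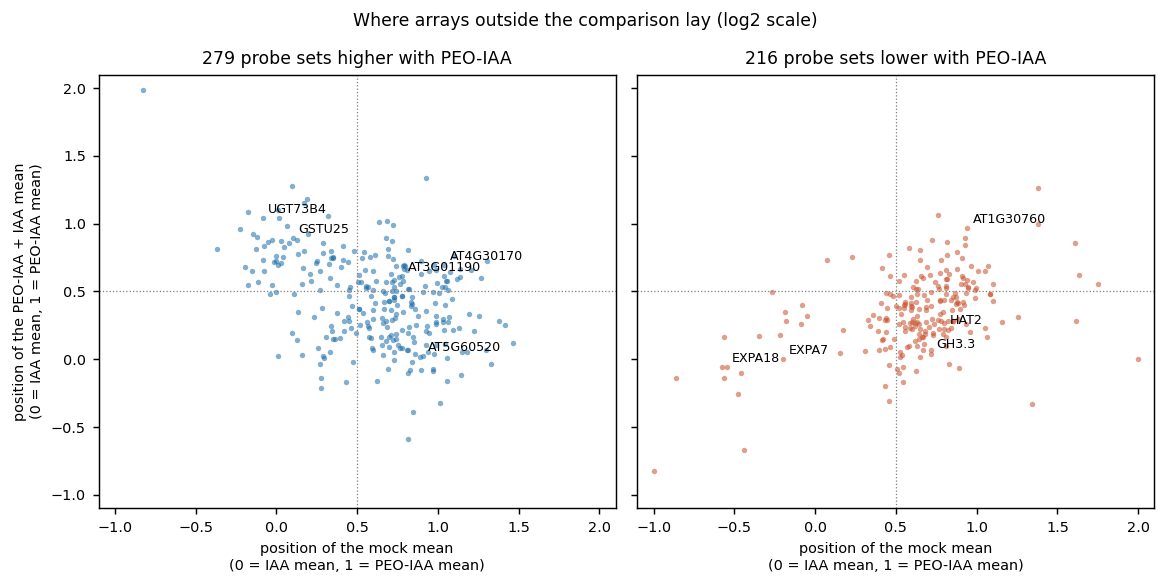
Position of the mock mean (horizontal axis) and of the PEO-IAA plus IAA mean (vertical axis) on a log2 scale set to 0 at the IAA mean and 1 at the PEO-IAA mean, 1 point per probe set, for the 279 higher (left) and 216 lower (right) probe sets; points beyond -1 or 2 are drawn at the edge and dotted lines mark the midpoint. Of the lower probe sets 112 lie in the lower right part, with GH3.3, against 116 of the higher ones.

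Which genes were called changed with the third IAA array more than how many were. With it 168 probe sets were called that were not called without it, and 160 of these had a smaller difference without it. Without it 133 were called that were not called with it, and in all 133 the third array lay on the PEO-IAA side of the mean of the other 2 IAA arrays. The sign differed between both fits in 3 of the probe sets called in either.

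The largest changes called only with the third array were in AT5G67430, AT1G47480, AT2G39040 and AT3G53980. AT5G67430 gave 47.8, 100.2 and 62.0 with PEO-IAA, against 317, 192 and 462 with IAA, and was at -2.06 ± 0.53 (adjusted p = 0.0281) with and -1.77 ± 0.58 (adjusted p = 0.121) without it. AT1G47480 gave 278, 184 and 149 with PEO-IAA, against 91.3, 90.5 and 35.2 with IAA, and moved to 1.06 ± 0.33 (adjusted p = 0.1). AT3G53980 kept its size, 1.37 ± 0.36 with and 1.41 ± 0.41 without the array, and lost the call with an adjusted p of 0.0707. In AT5G67430 the third array was the highest of the IAA group, and in AT1G47480 the lowest.

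Called only without the third array, with the largest differences, were AT3G46700, AT3G26460, AT2G44010 and AT4G25790. AT2G44010 gave 430.4, 364 and 282 with PEO-IAA, against 83.8, 143 and 382 with IAA, so that the third IAA array lay within the PEO-IAA group. Its difference was 1.04 ± 0.35 (adjusted p = 0.117) with and 1.62 ± 0.26 (adjusted p = 0.000797) without that array. AT4G25790 gave 24.3, 25.7 and 26.8 with PEO-IAA, against 102, 69.6 and 19.6 with IAA, and was at -0.89 ± 0.35 (adjusted p = 0.195) with and -1.47 ± 0.26 (adjusted p = 0.0014) without it. AT3G46700 was at 1.63 ± 0.48 and 2.13 ± 0.48, and AT3G26460 at 1.40 ± 0.41 and 1.63 ± 0.45.

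**Figure D5:**
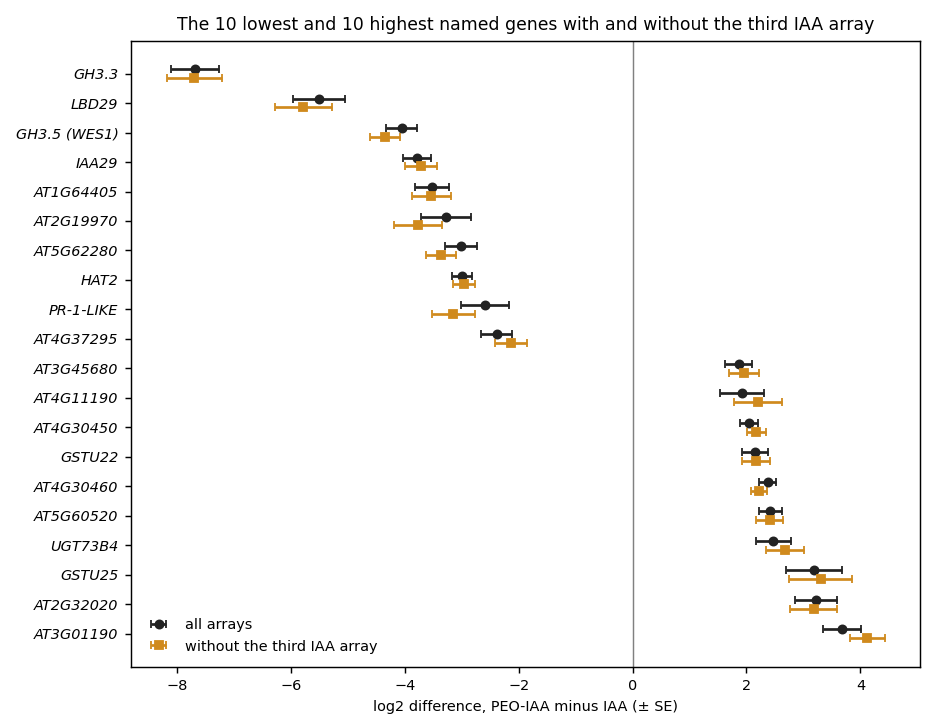
Log2 difference, PEO-IAA minus IAA, of the 10 lowest and 10 highest named genes with all arrays (black circles) and without the third IAA array (orange squares); bars are standard errors of the limma fit. The 20 genes were chosen among those called in both fits with the same sign. They run from GH3.3 at -7.69 and -7.70 to AT3G01190 at 3.68 and 4.12.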

How the data were processed

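The deposited table gives 1 linear intensity (MAS5 signal) for each of 22810 probe sets on 23 arrays, made with MAS5 per the submitters' processing notes; the version is not given in the sources used here. Neither scanner files nor detection calls were used here, so it is not known which probe sets exceeded background. The 2% trimmed mean of the deposited intensity was 500.04 to 500.05 on every array, so no further scaling was applied. The number of arrays limits the precision.

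Without 64 control probe sets, signals were transformed to log2(signal + 7.56), the pseudocount being the 10th percentile of all values, which makes changes of dim probe sets look smaller than they are. The 15922 probe sets with a mean over all arrays above the 30th percentile were tested with limma 3.58.1 under R 4.3.3 (eBayes with a trended prior) in 1 fit of 23 arrays as 9 group means (14 residual degrees of freedom), contrast PEO-IAA minus IAA, and again without the third IAA array (13 degrees of freedom). The scripts were tested on simulated data in which each probe set had the same spread on every array. No simulated array stood apart as the third IAA array did, so that test does not cover its effect. Names came from the platform annotation and the TAIR10.1 gene table: 13513 probe sets had 1 gene (13436 matched the table), 503 several and 8730 none. A gene was represented by its brightest probe set. Promoter and protein sequences were not used here.

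The members, gene lists and tests were chosen with earlier results of these data known. Genes are named by a rule: among probe sets called in both fits that name 1 gene, have no overlap between groups and a higher mean above 379.9, the median over tested probe sets, the 10 highest and 10 lowest differences; up to 4 called members of each list; and up to 4 called only with, and only without, the third IAA array. It named 46 genes, 25 higher and 21 lower with PEO-IAA. Alternatives changed the arrays in the fit, array weights, a replicate block, quantile normalization, pseudocount, filter and prior. With 3 arrays a group an exact permutation test of 1 gene cannot go below a two-sided p of 0.1, so only the fit across all probe sets was used.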

Additional observations from a re-analysis of the deposited data

How the results depend on the processing

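Leaving out 1 array at a time gave between 408 probe sets (without the first PEO-IAA array) and 1118 (without the first IAA array), against 663 with all arrays. The count was 152 with the PEO-IAA and IAA arrays alone, 417 with the 15 arrays of replicates 1 to 3, and 414 when the filter on dim probe sets was set at the median, where fewer were tested. Without the third IAA array it was 628, and 392 with the spread of the remaining 5 arrays alone; that setting and array weights without the third array were chosen after seeing the data. Counts stayed within 1.5 times with array quality weights, quantile normalization, both other pseudocounts, no filter and no trended prior. The share called higher with PEO-IAA was 57.5% with all arrays, 57.4% with the larger pseudocount and 56.9% after quantile normalization.

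Replicate numbers did not pair PEO-IAA and IAA arrays: deviations from the group means of arrays with the same number correlated at -0.022, -0.077 and -0.096. With the replicate block 1128 probe sets were called, and 1500 without the third IAA array, with 661 and 599 of the 663 calls among them. For PEO-IAA and mock arrays of the same number the correlations were 0.553, 0.413 and 0.416, and the block changed none of the calls against mock given above.

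Of the 46 named genes none changed direction under any alternative run. With the 6 arrays alone 16 lost their call, and with the 5 arrays without the third IAA array 6 did. With the 15 arrays 6 lost it, and without a single array between 2 and 5. The cause was not tested. The filter at the median left 30 of them tested. Dim probe sets limit the values of LBD29, GH3.1, EXPA7 and AT3G49960 with PEO-IAA. With the pseudocount of 60.4 other named values moved by over 1.5 times: UGT71C1 was at 1.52, AT2G39040 at 0.58, AT4G25790 at -0.47 and AT3G46700 at 1.07, and AT3G46700 was then called.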

Other observations

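The genes below were picked after their values were seen and were called with and without the third IAA array. CLE41 and CLE44 encode the same peptide signal, which keeps cambium cells dividing and holds back xylem formation, and they differed in opposite directions. CLE44 (AT4G13195) gave 158, 131 and 109 with PEO-IAA, against 385, 411 and 611 with IAA, a limma difference of -1.75 ± 0.21 (adjusted p = 2.78e-05). CLE41 (AT3G24770) gave 755, 703 and 698 with PEO-IAA, against 439.6, 458 and 482 with IAA, a difference of 0.64 ± 0.12 (adjusted p = 0.00287). Both held whichever of the 6 arrays was left out, and mock arrays lay near the PEO-IAA level in both, with 83.1, 108 and 169 for CLE44 and 725, 563 and 682 for CLE41. With the 6 arrays alone CLE44 was called (adjusted p = 0.0157) and CLE41 was not (adjusted p = 0.122).

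Among called genes that were higher with PEO-IAA were 3 known from glucosinolate and sulfur metabolism, processes for which no gene list was tested. BCAT4 (AT3G19710), which starts the side chain elongation of methionine for glucosinolates, gave 4324, 2563 and 2694 with PEO-IAA, against 1237, 1459 and 1116 with IAA, a difference of 1.29 ± 0.20 (adjusted p = 0.000313). The glucosinolate transporter GTR2 (AT5G62680) was at 1.03 ± 0.23 (adjusted p = 0.0124) and the ATP sulfurylase APS3 at 0.80 ± 0.17 (adjusted p = 0.00592). The third IAA array was the lowest of its group in all 3, and without it they were at 1.20 ± 0.21, 0.61 ± 0.14 and 0.62 ± 0.16. The jacalin-related lectins JAL33 and JAL34 were at 1.03 ± 0.20 and 0.89 ± 0.19, or 0.79 ± 0.17 and 0.63 ± 0.15 without that array. With the 6 arrays alone none of these 5 was called (adjusted p = 0.0582 for BCAT4 to 0.399 for GTR2).

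The dehydrin LTI30 and the mitochondrial NADH dehydrogenase NDB2 had means with both compounds that were at least as high as with PEO-IAA alone. LTI30 gave 1642, 1392 and 2223 with PEO-IAA, against 828, 1089 and 481 with IAA, and 2287, 1785 and 2474 with both, and its difference was 1.18 ± 0.26 (adjusted p = 0.00914). NDB2 was at 0.94 ± 0.19 (adjusted p = 0.00542). The fructose transporter SWEET17 was higher by 0.62 ± 0.13 (adjusted p = 0.00813), with 925, 757 and 696 with PEO-IAA, against 516, 597 and 431 with IAA and 871, 846 and 838 in mock.

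Of loci with no gene name, 3 outside the naming rule also differed strongly. AT4G25250 gave 345, 375 and 150.2 with PEO-IAA, against 12.3, 7.48 and 29.8 with IAA, a difference of 3.63 ± 0.43 (adjusted p = 1.82e-05). AT4G31470 gave 216, 183 and 174 with PEO-IAA, against 8.14, 8.11 and 39.0 with IAA, a difference of 3.13 ± 0.32 (adjusted p = 4.63e-06). AT3G45700 was at 2.38 ± 0.51 (adjusted p = 0.0084), and AT3G45710 and AT3G45680, which stand close to it in the genome, were at 1.19 ± 0.24 and 1.86 ± 0.24. Their IAA signals were dim, between 7.34 and 39.0 for AT4G25250, AT4G31470 and AT3G45700, so these values are among the less certain.

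On the scale with the IAA mean at 0 and the PEO-IAA mean at 1, kynurenine arrays, which lack added auxin and an added receptor blocker, lay at a median of 0.76 for the 279 higher and of 0.91 for the 216 lower probe sets, against 0.68 and 0.67 for mock. In 71 of the 216 and 70 of the 279 the kynurenine mean lay beyond the PEO-IAA mean, and the mock mean in 19 and 40. These positions have no test, since the scale's ends chose the probe sets.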
